A study of Mus musculus with 7 samples.

Results

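The genes described here encode the proteins of the mitochondrial ribosome and the machinery that carries proteins into mitochondria, measured in 2 fat depots of mice. They were taken by name from the deposited table as the genes whose platform symbol starts with Mrpl, Mrps, Timm or Tomm, from probes with exactly 1 symbol and without pseudogene (-ps) entries, and no measured value entered that choice. This gave 48 of 9294 genes, with 19 of the large ribosomal subunit (Mrpl), 13 of the small subunit (Mrps), 12 of inner membrane and intermembrane space import (Timm) and 4 of outer membrane import (Tomm). The genes of this machinery that the table did not hold under these conditions were not analysed here. All samples came from wild-type male C57 mice without a stated age or treatment. Fat beside the heart, called paracardial fat (pCF), was hybridised to 4 Affymetrix arrays, and intra-abdominal fat (iVF) to 3. The series title names alcohol dehydrogenase 1, and the comparison of the depots asks here whether the mitochondrial translation and import genes differed between them. The labels speak of biological replicates and do not tell if 1 animal gave 1 sample, and p-values here measure only the spread between these samples, which may be technical.

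Mitochondria make a small set of membrane proteins of the respiratory chain on their own ribosomes, whose ribosomal RNAs come from the mitochondrial genome and whose proteins are all encoded in the nucleus. These ribosomal proteins, like nearly all other mitochondrial proteins, are made in the cytosol and enter through the TOM complex of the outer membrane. Small chaperones of the intermembrane space pass hydrophobic carriers to the TIM22 complex, and the TIM23 complex with its motor takes proteins with a presequence into the matrix. White adipocytes use mitochondria for fat synthesis and oxidation, and brown adipocytes hold many of them for heat production.

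The 48 genes differed little between the depots. Differences are paracardial minus intra-abdominal on the deposited log2 scale, from limma, and a gene was called at a Benjamini-Hochberg adjusted p under 0.05 over all genes. No member was called, where 9.16% of all genes tested were, and the smallest adjusted p among the members was 0.079. At an unadjusted p under 0.05 stood 5 of the 48 members (10.4%) and 24.4% of all genes. The median absolute difference was 0.21 over the members and 0.47 over all genes. A difference under 0.5 was found for 38 members (79.2%) against 51.8% of all genes, and a difference of at least 1 for 1 member (Tomm7) against 28.4% of all genes. For 28 members (58.3%) the whole 95% confidence interval lay between -1 and 1, which held for 31.1% of all genes. The median half-width of these intervals was 0.68, so differences below about that size were not resolved with 7 arrays.

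**Figure D1:**
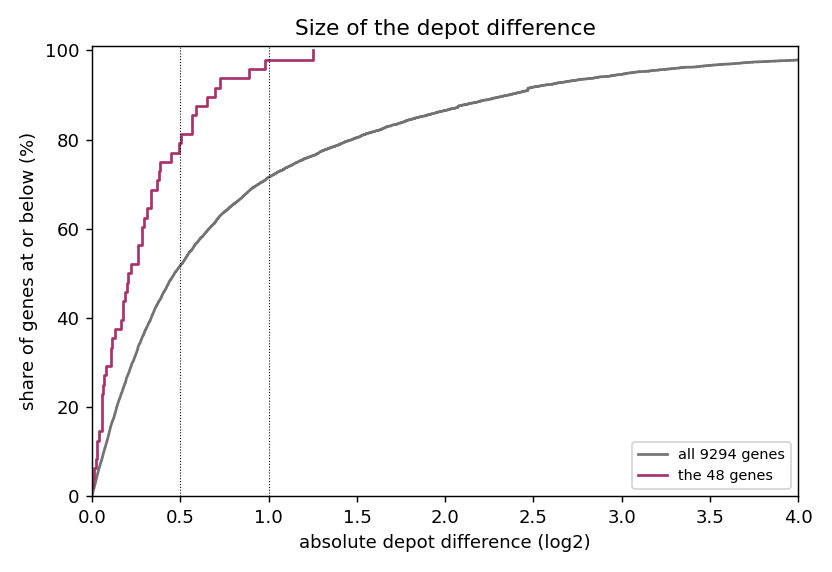
Share of genes (%) whose absolute depot difference on the log2 scale lies at or below the value on the x axis, for the 48 genes and for all 9294 genes, with dotted lines at 0.5 and 1. The curve of the 48 genes reaches 79.2% at 0.5, where that of all genes stands at 51.8%, and the x axis ends at 4.

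As a group the genes had no settled direction. The median difference was 0.11, with 33 positive and 15 negative values, beside a median of 0.13 over all genes. After each array was centred on its median it was -0.029 with 22 positive values, and after quantile normalization was applied again it was -0.00044 with 24. Without intra-abdominal array 3 it was 0.28 with 41 positive values (0.081 over all genes), and without paracardial arrays 1 and 2 it was also 0.28 with 44 (0.17 over all genes). The medians of the large and small subunit were 0.056 and 0.053 as deposited and -0.082 and -0.085 after centring, and that of the Timm genes was 0.10 and then -0.034. The 4 Tomm genes had a median of 0.71 with 4 positive values as deposited and of 0.57 with 3 after centring.

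The depots separated completely for 6 of the 48 genes. The 4 paracardial arrays all lay above the 3 intra-abdominal arrays for 5 members (Tomm7, Tomm22, Mrps16, Mrpl28 and Timm13), where 18.0% of all genes did so. All 4 lay below for 1 member (Timm10), where 8.78% of all genes did so. The gap between the nearest arrays was small for all 6 genes, and smallest for Timm13. Mrpl28 and Timm13 also had small differences, of 0.28 ± 0.17 (SE) and 0.17 ± 0.17. Mrpl28, Timm13 and Timm10 lay below the median of all probes on every array.

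**Figure D2:**
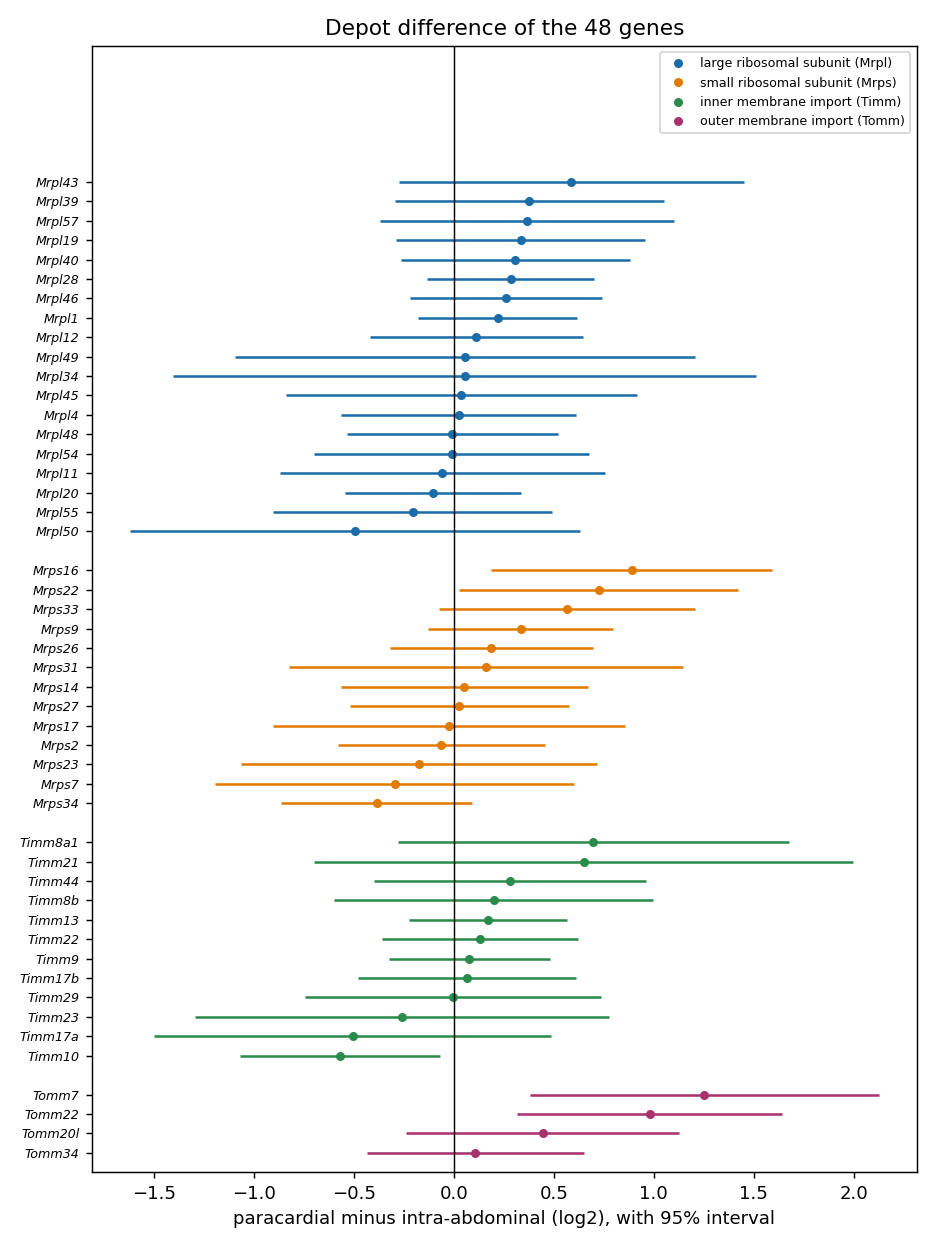
Depot difference (paracardial minus intra-abdominal, log2) of each of the 48 genes with its 95% confidence interval, ordered by size within the 4 groups. The intervals of Tomm7, Tomm22, Mrps16, Mrps22 and Timm10 do not reach 0, and no adjusted p is under 0.05.

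The outer membrane genes held the largest differences. Tomm7 is a small subunit of the TOM channel that also helps to keep the kinase PINK1 on damaged mitochondria. In paracardial fat its log2 values, given by array number here and for the genes that follow, were 8.69, 8.50, 8.95 and 9.33, and in intra-abdominal fat they were 7.46, 7.04 and 8.35. Every paracardial array lay above every intra-abdominal array, with intra-abdominal array 3 close to paracardial array 2. The means were 8.87 ± 0.36 (SD, n = 4) and 7.61 ± 0.67 (SD, n = 3), a difference of 1.25 ± 0.37 (SE) with a 95% interval of 0.38 to 2.13 and an adjusted p of 0.087.

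Tomm22 is the central receptor and also holds the TOM complex together. Its values were 9.57, 9.23, 9.51 and 9.88 in paracardial fat and 8.39, 8.23 and 9.08 in intra-abdominal fat. The depots did not overlap, and array 3 was again the highest intra-abdominal one. The difference was 0.98 ± 0.28, with an interval of 0.32 to 1.64 and an adjusted p of 0.079. Without intra-abdominal array 3 both genes passed, Tomm7 at 1.62 (adjusted p = 0.029) and Tomm22 at 1.24 (0.032), in a fit that called 8.96% of all genes. Leaving out any of the other 6 arrays gave no call of either gene.

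The other Tomm genes had smaller differences. Tomm20l, a paralog of the import receptor Tomm20, was dim on all arrays, with values of 5.17, 5.07, 4.43 and 4.22 in paracardial fat and 4.19, 4.31 and 4.33 in intra-abdominal fat. Paracardial arrays 1 and 2 stood above the rest, and the difference was 0.44 ± 0.29 (adjusted p = 0.413). Tomm34, a co-chaperone found mostly in the cytosol, ranged from 6.63 to 7.31 in paracardial fat and from 6.61 to 6.91 in intra-abdominal fat. Its difference was 0.11 ± 0.23 as deposited and -0.031 after centring on array medians.

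**Figure D3:**
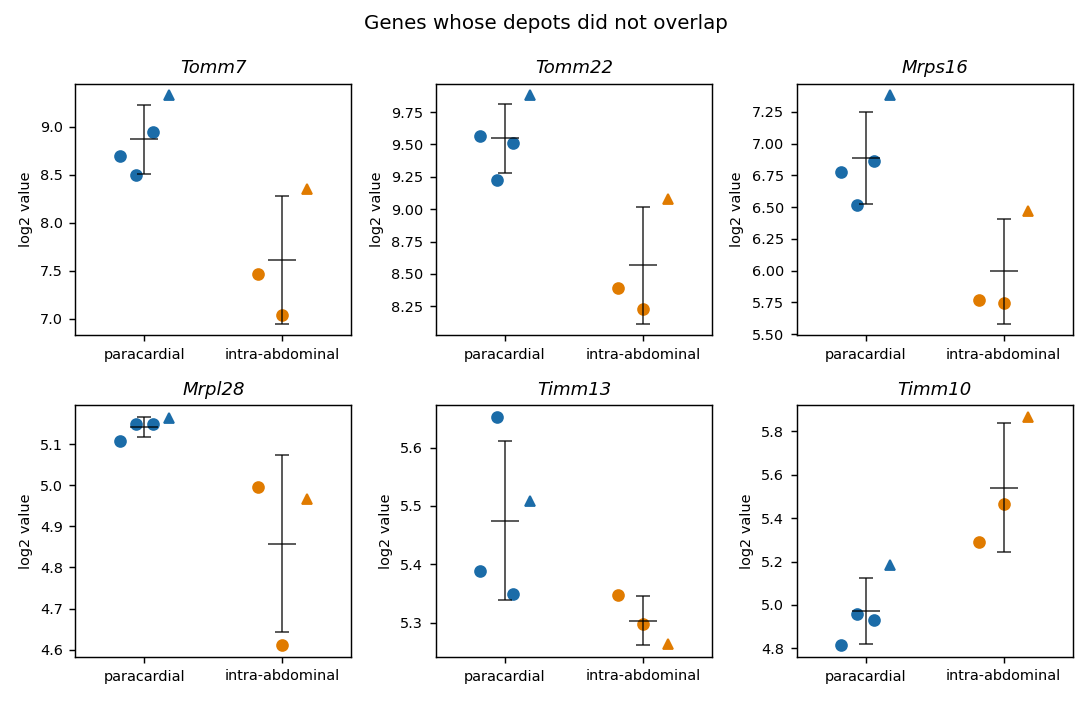
Log2 values of the 6 genes whose depots did not overlap, 1 point per array, with paracardial arrays in blue, intra-abdominal arrays in orange, triangles for paracardial array 4 and intra-abdominal array 3, and bars for the mean and SD of each depot (n = 4 and n = 3). Tomm7, Tomm22, Mrps16, Mrpl28 and Timm13 were higher and Timm10 was lower in paracardial fat, and the y axes differ between panels and do not start at 0.

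Among the chaperones of the intermembrane space, Timm10 had the lower values in paracardial fat. It forms a hexamer with Timm9 that shields carrier proteins on their way to the inner membrane. Its values were 4.81, 4.96, 4.93 and 5.18 in paracardial fat and 5.29, 5.46 and 5.87 in intra-abdominal fat. All paracardial values were the lower ones, with a difference of -0.57 ± 0.21, an interval of -1.07 to -0.07 and an adjusted p of 0.155. Its partner Timm9 differed by 0.077 ± 0.17, with 5.36, 5.49, 5.49 and 5.64 against 5.49, 5.27 and 5.49. The partners had opposite signs as deposited and the same sign after centring (-0.71 for Timm10 and -0.061 for Timm9), and the difference between them was not tested.

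Timm8a1 and Timm13 form the other chaperone pair, and mutations of the human counterpart of Timm8a1 cause a deafness and dystonia syndrome. The values of Timm8a1 were 7.11, 8.16, 7.53 and 8.30 in paracardial fat and 6.96, 6.54 and 7.73 in intra-abdominal fat, so the depots overlapped, and the difference was 0.70 ± 0.41 (adjusted p = 0.366). The symbol has 2 probes that did not behave alike. The probe used, which has the higher mean, carries chromosome 10 in its name, whereas RefSeq places the gene on X. The other probe carries X and gave 6.45 to 6.56 in paracardial fat and 6.38 to 6.56 in intra-abdominal fat, a difference of 0.051 ± 0.16. The mean of the probes differed by 0.37. Of 5789 probes with a RefSeq chromosome, 5719 carry the same chromosome in their name. The values printed for Timm8a1 may therefore be those of another locus, which was not tested. Timm8b, a paralog, differed by 0.20 ± 0.33, with the lowest value on intra-abdominal array 2 (6.21) and the highest on intra-abdominal array 3 (7.27).

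Spread within a depot varied among the inner membrane translocase genes. Timm22, the channel of the carrier translocase, differed by 0.13 ± 0.21 and Timm17b, a paralog of Timm17a, by 0.067 ± 0.23, both with a smaller SE than the members' median of 0.28, and Timm29, a partner of Timm22, by -0.0022 ± 0.31. Timm23 forms the channel for presequence proteins, and its probe too carries chromosome 10 in its name while RefSeq places the gene on 14, so it may measure another locus. Its values were 10.29, 9.96, 10.99 and 11.07 in paracardial fat and 10.32, 10.54 and 11.64 in intra-abdominal fat, a difference of -0.26 ± 0.43 that turned to 0.15 without intra-abdominal array 3. Timm17a, a core partner of that channel, gave 8.27, 8.32, 8.32 and 8.84 against 8.30, 8.60 and 9.93. The last of these, on intra-abdominal array 3, stood apart, and the difference was -0.50 ± 0.42 with all arrays and -0.011 without that array.

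Timm21, which links the translocase to the outer membrane and to the respiratory chain, had a 95% interval of -0.70 to 1.997. Its values of 7.03, 7.12, 7.38 and 8.43 in paracardial fat overlapped those of 5.69, 7.15 and 7.69 in intra-abdominal fat. The lowest value, on intra-abdominal array 1, stood apart, and the difference was 0.65 ± 0.56 (adjusted p = 0.543) with it and 0.073 without it. Timm44, which anchors the import motor to the channel, differed by 0.28 ± 0.28. The range of values within each depot was wider than the depot difference for Timm23, Timm17a and Timm21.

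In the small ribosomal subunit the differences were led by Mrps16 and Mrps22, both of which cause mitochondrial disease when mutated in humans. Mrps16, which has a bacterial counterpart, gave 6.78, 6.52, 6.86 and 7.38 in paracardial fat and 5.77, 5.74 and 6.47 in intra-abdominal fat. The depots did not overlap, with only a small gap between paracardial array 2 and intra-abdominal array 3. Its difference was 0.89 ± 0.29, with an interval of 0.19 to 1.59 and an adjusted p of 0.119. Mrps22, a protein particular to the mitochondrial ribosome, gave 7.39, 7.13, 6.87 and 7.35 against 6.03, 6.31 and 7.04. Paracardial array 3 lay below intra-abdominal array 3, and the difference was 0.72 ± 0.29 (adjusted p = 0.187).

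Mrps33 was almost level in paracardial fat and spread in intra-abdominal fat. Its values were 7.15, 7.13, 7.14 and 7.36 against 6.26, 6.41 and 7.22, a difference of 0.57 ± 0.27 (adjusted p = 0.262). Without intra-abdominal array 3, Mrps22 passed at 1.02 (adjusted p = 0.049) and Mrps33 at 0.86 (0.036), where 8.96% of all genes were called. At the other end stood Mrps34 with -0.38 ± 0.20 and values of 6.11, 6.08, 6.06 and 6.57 against 6.46, 6.66 and 6.64, where only paracardial array 4 reached the intra-abdominal range. Mrps7, which helps to form the head of the subunit, differed by -0.29 ± 0.38 (0.026 without intra-abdominal array 3) and Mrps9 by 0.33 ± 0.19.

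Differences in the large subunit were small. Of its 19 genes, 18 differed by less than 0.5, and its smallest adjusted p was 0.390. The largest positive difference was that of Mrpl43 (0.59 ± 0.36), with values of 6.52, 6.46, 6.84 and 7.51 against 6.15, 5.78 and 6.80. The largest negative one was that of Mrpl50 (-0.49 ± 0.47), with 6.70, 6.80, 7.79 and 8.20 against 7.26, 7.95 and 8.39, and it was 0.13 without paracardial arrays 1 and 2. Both depots overlapped in these genes. Mrpl40 and Mrpl46, which lie in the central protuberance of the subunit, differed by 0.31 ± 0.24 and 0.26 ± 0.20. Mrpl1 of the mobile L1 stalk differed by 0.22 ± 0.17, and Mrpl39 and Mrpl57, both particular to mitochondria, by 0.38 ± 0.28 and 0.37 ± 0.31.

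For most of the 48 genes, 2 arrays stood above the others of their own depot. Paracardial array 4 gave the highest paracardial value for 44 of 48 members, where it did so for 44.1% of all genes. Intra-abdominal array 3 gave the highest intra-abdominal value for 40 members, where it did so for 46.4% of all genes, and both held for 37 members (77.1%) against 29.8% of all genes. By array number, the median over the members was 6.15, 6.23, 6.24 and 6.94 for paracardial fat, against 6.06, 6.13 and 6.64 for intra-abdominal fat. The array medians over all probes ran from 5.99 to 6.37. On paracardial array 4 and intra-abdominal array 3 the highest value was 19.93, against 19.81 to 19.84 on the other 5, and the 5th percentile was 3.995 and 3.9996, against 4.38 to 4.44. These 2 arrays are treated as an array set below, which the values define and the labels do not name.

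The mean excess of these arrays over the others of their depot was positive for 46 of the 48 genes, with a median of 0.56 and a range of -0.30 (Tomm20l) to 1.68 (Mrpl34). Over all genes it was positive for 58.0%, with a median of 0.15. Related genes had it too, so it was not particular to the 48. It was positive for 42 of 44 respiratory chain subunits (median 1.15), 21 of 23 cytosolic ribosomal protein genes (0.93) and 39 of 41 genes of the translation and import lists described further on (0.58). It was larger than the depot difference, without regard to sign, for 36 members (75.0%) against 56.4% of all genes. Mrpl34, a large subunit protein with a bacterial counterpart, had the largest excess, with 5.39, 5.19, 5.48 and 6.87 in paracardial fat and 5.07, 5.07 and 6.91 in intra-abdominal fat. Both arrays of the set stood far above the rest there, and the depot difference was 0.054 ± 0.61. After centring on array medians paracardial array 4 was the highest for 34 members (33.9% of all genes) and intra-abdominal array 3 for 42 (49.6%). The count for paracardial array 4 was 30 (37.1%) after quantile normalization was applied again. Ucp1, the uncoupling protein of brown fat, was 13.92 on paracardial array 4 and 4.36 on intra-abdominal array 3, against 4.57 to 6.14 on the other arrays. The other 3 measured brown fat markers were highest on paracardial array 4 too, Cidea at 9.38 (at most 6.47 elsewhere), Cox7a1 at 8.24 (at most 6.75) and Cox8b at 6.86 (at most 5.58). The median of the 4 markers was 8.81 on that array, 5.21 to 5.93 on the other paracardial arrays and 5.09 to 5.78 in intra-abdominal fat. The part of brown fat cells or of array processing in the values of this set was not tested.

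**Figure D4:**
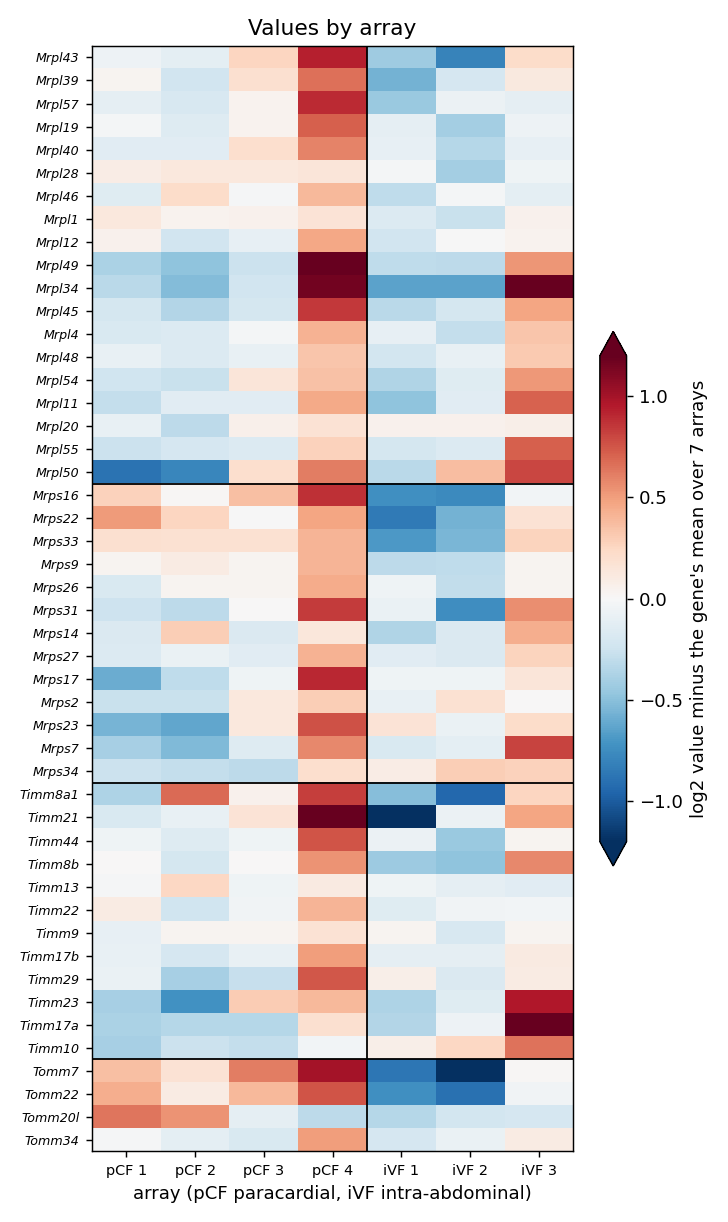
Log2 value minus the gene's mean over 7 arrays, for 48 genes (rows, in the order large subunit, small subunit, Timm, Tomm, each by depot difference) and 7 arrays (columns), with red above and blue below the mean and colours ending at 1.2. Paracardial array 4 is the reddest paracardial column, with the highest paracardial value for 44 genes, and intra-abdominal array 3 the reddest intra-abdominal one, with the highest for 40.

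**Figure D5:**
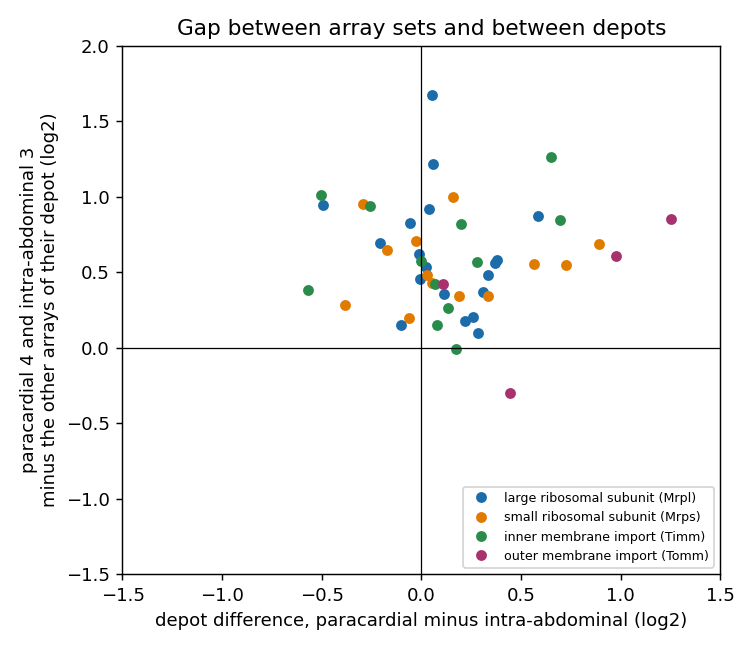
For each of 48 genes, the depot difference on the x axis and, on the y axis, the mean excess of paracardial array 4 and intra-abdominal array 3 over the other arrays of their depot, both in log2 units. Of the 48 points 46 lie above 0 on the y axis, while on the x axis 33 lie above and 15 below 0, a split that was 22 to 26 after centring on array medians.

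Between depots, the members had a median difference of 0.13 over the 5 arrays outside the set and of 0.30 over the 2 arrays of the set, beside 0.061 and 0.16 over all genes. The sign was the same in both for 35 of 48 genes (72.9%), against 70.4% of all genes. With the array set as a block, Tomm7 (1.32, adjusted p = 0.014), Tomm22 (1.03, 0.014), Mrps16 (0.95, 0.013) and Timm10 (-0.54, 0.048) passed, 4 of 48 members, where 17.8% of all genes were called in that fit. In the 5 arrays alone Tomm7, Tomm22, Mrps16 and Mrps33 passed, where 10.1% of all genes did. None of these was called in the main fit, which used all 7 arrays as deposited with no block and no array weights. Exact repeats were common, since 18 of the 48 members (37.5%) had exactly the same value on more than 1 array, against 19.0% of all genes. Timm9 was one of them, with 5.49 on 4 arrays. Genes are not independent replicates, and across these 48 the Pearson correlation of array pairs was 0.924 to 0.977 within paracardial fat, 0.926 to 0.952 within intra-abdominal fat and 0.887 to 0.942 between the depots.

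Promoter windows were examined because nuclear genes for mitochondrial proteins are known to be bound by NRF-1, GABP and YY1. RefSeq windows of build GRCm38.p6, from 250 bases before to 50 after the start of the gene, were at hand for 42 of the 48 genes, in 48 windows. The letters CGCATGCG for NRF-1, CCGGAAGT for GABP and AAGATGGC for YY1 were searched on both strands. None of the 3 contains another. At least 1 of them occurred in 12 of the 48 windows, against 8.07% of all 32851 windows of that length. GABP letters were in 8 member windows (16.7% against 3.89%), YY1 letters in 3 (6.25% against 2.75%) and NRF-1 letters in 2 (4.17% against 1.87%). The 12 genes with a match had a median depot difference of 0.042, from -0.57 to 0.72, and the 30 without one of 0.12, from -0.50 to 0.98. A match describes the letters only, and no match says only that these letters are not in the window. The windows below are shown because they belong to the genes furthest apart in the comparison that have a window with a GABP match (Timm10 lowest, Mrps22 highest), and to Tomm22, which has none, with the matched letters in capitals and each read 5′ to 3′ on the strand of the gene.
Timm10, chr2:84826771-84827070, plus strand: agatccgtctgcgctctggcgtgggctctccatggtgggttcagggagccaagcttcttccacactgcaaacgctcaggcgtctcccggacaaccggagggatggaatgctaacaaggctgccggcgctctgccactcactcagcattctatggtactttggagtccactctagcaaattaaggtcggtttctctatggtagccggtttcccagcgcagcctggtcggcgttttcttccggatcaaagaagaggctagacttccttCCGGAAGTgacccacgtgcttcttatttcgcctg
Mrps22, chr9:98601630-98601929, minus strand: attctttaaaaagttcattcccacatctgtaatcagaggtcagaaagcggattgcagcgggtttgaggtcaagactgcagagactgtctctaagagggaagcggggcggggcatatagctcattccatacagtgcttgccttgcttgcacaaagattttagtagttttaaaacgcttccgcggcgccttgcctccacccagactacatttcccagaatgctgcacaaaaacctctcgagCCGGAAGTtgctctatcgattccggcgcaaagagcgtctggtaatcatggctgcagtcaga
Tomm22, chr15:79670618-79670917, plus strand: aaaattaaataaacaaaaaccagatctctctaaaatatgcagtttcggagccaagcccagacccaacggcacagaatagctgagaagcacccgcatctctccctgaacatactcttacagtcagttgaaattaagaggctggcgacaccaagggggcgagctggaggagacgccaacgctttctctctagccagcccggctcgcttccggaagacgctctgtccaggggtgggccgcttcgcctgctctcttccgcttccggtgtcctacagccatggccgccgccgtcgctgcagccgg

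Both matches lie in the last part of the window near the start of the gene, in 1 gene whose paracardial values were the lower ones and 1 whose mean was higher there.

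Genes that work with the ribosome and the import machinery gave no call either, where 9.16% of all genes were called. None passed among 2 measured of 8 listed names of ribosomal or ribosome-linked proteins, 5 of 16 translation factors and 9 of 22 tRNA synthetases. None passed among 8 of 27 assembly and RNA processing genes and 11 of 16 import motor, sorting and intermembrane space genes. The same held for 5 of 20 presequence proteases and matrix chaperones and 1 of 13 biogenesis regulators. Of all these, 2 stood at an unadjusted p under 0.05, where 24.4% of all genes did. The median differences of these lists were 0.059, 0.26, 0.29, 0.15, -0.15, 0.27 and 0.22 in that order, beside 0.13 over all genes. The import motor list reached furthest. Dnajc15, a J-protein of the import motor, gave 10.33, 10.60, 11.43 and 11.79 in paracardial fat and 9.39, 8.85 and 10.62 in intra-abdominal fat, a difference of 1.42 ± 0.54 (adjusted p = 0.164). Its depots overlapped through intra-abdominal array 3. Hspa9, the motor's Hsp70, had the opposite sign at -1.02 (adjusted p = 0.158), and it was named after its values were seen.

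The largest differences of the other lists were those of Gadd45gip1, a large subunit protein (0.34 ± 0.22), Taco1, a translational activator of cytochrome oxidase (0.34 ± 0.26), and Kars, the lysyl-tRNA synthetase of cytosol and mitochondria (0.60 ± 0.67). Hsd17b10, a subunit of the mitochondrial RNase P, differed by -0.55 ± 0.30, the peptidase Immp1l by 0.56 ± 0.47 and the mitochondrial DNA helicase Twnk by 0.22 ± 0.26. Their adjusted p ran from 0.333 to 0.653.

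For comparison, 9 of 23 cytosolic ribosomal protein genes were called higher in paracardial fat and none lower, with a median difference of 1.49. Of all 9294 genes, 581 were called higher and 270 lower. Of 44 respiratory chain subunits 0 were called, with a median of -0.18 and 2 at an unadjusted p under 0.05 (24.4% of all genes). The difference of the 48 genes from the cytosolic ribosomal or the respiratory chain genes was not tested. The median level over all arrays was 6.35 for the 48 genes, 11.3 for the cytosolic ribosomal genes and 8.65 for the respiratory chain genes. Markers of cell types differed more on the same arrays. Of 10 measured adipocyte markers 7 were lower in paracardial fat and 3 were not called, with array medians of 6.08 to 9.70 in paracardial and 14.4 to 16.2 in intra-abdominal fat, so adipocyte markers were low on the paracardial arrays for a fat depot, above all on arrays 1 and 2. T and NK cell markers were called higher for 3 of 5, with array medians of 8.50 to 11.2 against 5.71 to 6.32. Of 5 thymocyte markers 2 were called higher, with array medians over the 5 of 9.36 to 11.5 against 6.37 to 8.32. Cd1d1 of that list had the opposite sign (-3.29, adjusted p = 0.058). The thymocyte gene Dntt was at 15.43, 14.70, 16.33 and 17.91 in paracardial fat by array number. In intra-abdominal fat Dntt was uneven, at 12.4, 8.32 and 6.37. Cd8b1 of the thymocyte list was at 17.28, 16.25, 17.43 and 19.09 in paracardial fat and at 15.98, 10.50 and 9.06 in intra-abdominal fat. Its difference of 5.67 was not called (adjusted p = 0.086). Both measured cell cycle genes were higher, 2 of 4 endothelial markers were lower, and none of 6 macrophage markers and none of 5 B cell markers was called, with 2 and 0 of them at an unadjusted p under 0.05. Of 5 mesothelial and epithelial markers 2 were called higher, the keratins Krt18 (difference 6.06, adjusted p = 0.012) and Krt8 (5.08, 0.009). The other 3 were not called, Epcam at 1.33, the keratin Krt19 at 0.15 and the mesothelial marker Msln at -0.30. In tissue samples like these, fewer cells of a type and less RNA per cell cannot be told apart. The part of the cell makeup in the values of the 48 genes was not tested.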

How the data were processed

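Gene expression in paracardial fat (4 arrays) and intra-abdominal fat (3 arrays) was read from 1 table. The values the authors deposited are log2, and the submitters' processing notes name RMA and Affymetrix Expression Console. Software versions and the genome build count as not given in the sources used here. Signal over background is unknown, and precision is limited by the number of arrays.

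Of 11949 probes, 9352 had exactly 1 symbol, and the highest-mean probe per gene left 9294 genes. Symbols were updated through RefSeq (GRCm38.p6, used for names, chromosomes and promoters), and 47 of the 48 members matched by Entrez ID. Left out were 3 pseudogene entries and 1 probe with several symbols. Depot differences were fitted on all 7 arrays with limma 3.58.1 (R 4.3.3, lmFit, then eBayes with no trend, 2-sided p-values, 5 residual and 1.68 prior degrees of freedom) and adjusted by Benjamini-Hochberg over all genes. No filter on low values was used, so every member was tested. The fit was run on simulated data of independent normal values, which hold neither the excess of the array set nor exact repeats. Python 3.11.15 with pandas 2.3.3, numpy 2.4.6 and matplotlib 3.10.9 did the rest.

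The genes named were those past the threshold (none), the largest of each prefix in either direction, further members by size up to 24, and all small Tim chaperones and TOM channel or receptor forms, 27 in all. Other members and Hspa9 were named after their values were seen. Members, lists, alternatives and the array set were chosen with earlier results of these data known. Alternatives were filters on dim genes, 3 other scalings, a robust eBayes with trend, weighted arrays, a block for the replicate number, probe means, the array set as a block or the 5 arrays outside it alone, no paracardial arrays 1 and 2, and each array left out.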

Additional observations from a re-analysis of the deposited data

Results flagged for a closer look

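On paracardial array 4, 10 of the 48 genes had a value set apart above the other paracardial arrays by Dixon's test at 95%. Chance alone meets this test in about 1 in 20 groups. The test divides the gap to the next value by the range, so a small gap can be flagged where the other arrays are level, as for Mrps33. The values were 6.41 for Mrpl48 (next highest 5.997), 7.45 for Mrpl45 (6.39), 8.38 for Mrpl49 (6.90), 6.57 for Mrps34 (6.11) and 6.75 for Mrps27 (6.25). They were 7.001 for Mrps9 (6.69), 7.36 for Mrps33 (7.15), 8.84 for Timm17a (8.32), 7.04 for Timm17b (6.45) and 7.13 for Timm44 (6.32). All 10 lay on the same array and in the same direction. The test was run on the 48 genes only, so no share over all genes stands beside the 10. The rate of 1 in 20 does not allow for exact ties. The 48 groups are the same 4 arrays and not independent, so the count of 10 cannot be read against that rate. Array 4 was the highest paracardial array for 44 of the 48 genes and for 44.1% of all genes. Some of these genes, such as Mrpl45 and Timm17a, had tied values on other paracardial arrays. Groups of 3, such as the intra-abdominal arrays, were not examined this way. The part of array processing or of the cells in that sample was not tested.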

How the results depend on the processing

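Of the 27 members named by the rule, none was past the threshold in the main fit. Of 502 values under the alternatives, 469 kept both sign and side, 26 passed the threshold and 7 turned sign. Members called higher numbered 1 with cyclic loess (Tomm7), where 11.2% of all genes were called in either direction, and 10 with array weights. They numbered 3 with the array set as a block (17.8% of all genes) and 4 in the 5 arrays outside the array set (10.1%). Leaving out 1 array in turn gave 0 to 4, in fits that called 1.99% to 8.96% of all genes. The 4 came without intra-abdominal array 3, where the share was 8.96%. Members called lower numbered 3 with array weights, 1 with the array set as a block (Timm10) and 0 otherwise. The estimation of array weights stopped before convergence, and that fit called 38.9% of all genes. The median difference ran from -0.029 to 0.28, against 0.11 in the main fit. It moved by less than 1 SD of the members' array medians within depots (0.35), a limit so wide that a change of sign falls within it. The median difference was below 0 with centring, quantile normalization, the replicate block and without paracardial array 4. The replicate block and the fit without paracardial array 4 gave the same median (-0.0063) and are not separate results. Number 4 occurs only in paracardial fat, so that array does not enter the differences under the block. Signs turned for Mrpl50 (0.13), Mrps7 (0.046) and Timm23 (0.20) without paracardial arrays 1 and 2, for Mrps7 (-0.53 to 0.026 over the fits that leave out 1 array) and Timm23 (-0.52 to 0.15) without intra-abdominal array 3, and for Timm9 with quantile normalization (-0.0046) and centring (-0.061), and the cause was not tested. Of the other 21 members, all with differences of at most 0.21, 20 turned sign under at least 1 alternative and 0 were called. With the replicate number as a block the members had a median of -0.0063, and limma called 0 of all 9294 genes, with 2134 of them and 5 members at an unadjusted p under 0.05. Same-numbered arrays did not deviate together (correlations of 0.048, 0.047 and -0.50 over all genes). These are deviations from means of only 4 and 3 arrays and hold the array set too, so they cannot tell if the numbers pair the samples. Paracardial array 3 deviated most like intra-abdominal array 1 (0.490) and intra-abdominal array 3 like paracardial array 4 (0.391), not like their own numbers. Between the fits, counts over all genes ranged from 0 to 3614 against 851.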

Other observations

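The 3 pseudogene entries of the same name families, which were left out of the 48 genes, also had their highest paracardial value on array 4. Mrpl23-ps1 gave 7.39, 7.06, 8.29 and 8.80 in paracardial fat and 6.24, 5.995 and 7.91 in intra-abdominal fat, a difference of 1.17 ± 0.62 (SE). Mrpl48-ps differed by 0.24 ± 0.35 and Mrps36-ps1 by 0.29 ± 0.52. Copies of a gene can share signal with it on an array, and none of the 3 was called.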
